A study of Mus musculus with 2 samples.

Results

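The genes described here were 31 mouse genes of cholesterol and fatty acid synthesis, chosen by symbol: 7 of the mevalonate steps, 11 of the steps from squalene to cholesterol, 5 that control the SREBP transcription factors, the sterol carrier Stard4 and 7 of fatty acid synthesis. All 31 were among the 32286 features of both libraries. The data were 2 scRNA-seq libraries made in droplets from mixed cell lines, 1 of embryonic stem cells (ESCs) grown in serum with LIF on feeder cells (0 h) and 1 of epiblast-like cells after 48 h on Matrigel in N2B27 medium with activin A, bFGF and KSR (48h-EpiLCs). Each was a mixture of equal cell numbers of a wild-type (WT) line of the ICR strain with the ROSAmT/mG reporter, which transcribes tdTomato, and of a Cnot8 knockout (KO) line, and the labels give the genotype of both mixtures as wild type. Cnot8 encodes a deadenylase subunit of Ccr4-Not, a complex that removes poly(A) from mRNAs. The number of KO clones in the mixture is not given in the sources used here.

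Cholesterol is built from acetyl-CoA through mevalonate and isoprenoid diphosphates to squalene, which is closed to lanosterol and then trimmed, reduced and isomerised to cholesterol. Fatty acids are built from the same acetyl-CoA by carboxylation, chain elongation and desaturation. The SREBP factors, encoded by Srebf1 and Srebf2, are held in the endoplasmic reticulum by Scap and the Insig proteins when sterols are plentiful. When sterols are scarce they are carried to the Golgi, cut and released to the nucleus, where they raise transcription of both pathways, usually together with the factors NF-Y and Sp1. Fast-dividing pluripotent cells need membrane lipid, which they take up from the medium or make themselves.

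Barcodes were kept if they had 1000 or more detected genes and no more than 10% of counts from mitochondrial genes, which left 11054 of 13184 barcodes in the ESC library and 9400 of 12427 in the 48h-EpiLC library. A cell was called WT with at least 1 tdTomato UMI (unique molecular identifier, a counted transcript molecule; a level is given as CPM, the UMIs of a gene per 1000000 UMIs of its class) and 0 UMIs of the Y-linked genes Ddx3y, Eif2s3y, Kdm5d and Uty, and KO with 0 tdTomato UMIs and at least 2 Y-linked UMIs. This gave 435 WT and 2978 KO cells among the ESCs, with medians of 13151 and 13368 UMIs, and 368 WT and 2977 KO cells among the 48h-EpiLCs, with medians of 15598 and 17628. In each library 35 cells had both tdTomato and at least 2 Y-linked UMIs and entered neither class, and 5321 ESC-library and 4247 48h-EpiLC-library cells had neither signal. Line, genotype and sex chromosomes cannot be told apart, nor can stage, medium and library. Only 41 barcodes occurred in both libraries.

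The classes carried the markers of their labels. The summed level of 6 naïve pluripotency genes was 1026 CPM in WT and 1314 in KO ESCs against 116 and 231 in 48h-EpiLCs, and that of 4 formative genes was 310 and 351 against 1109 and 954 CPM. Summed markers of 10 feeder fibroblast genes were at 12.7 CPM in WT and 46.3 CPM in KO ESCs, with 1 of the 10 at 0 in WT, and at 8.68 and 12.0 CPM in 48h-EpiLCs, with 4 at 0 in WT. Primitive endoderm markers were at 23.7 and 42.6 CPM in WT and KO ESCs, against 7.07 and 8.57 CPM in 48h-EpiLCs. Cnot8 itself was at 43.1 CPM in WT and 72.1 CPM in KO ESCs and at 49.7 CPM in WT and 62.6 CPM in KO 48h-EpiLCs. The KO allele is a small deletion, which counts of transcript 3′ ends do not check.

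Promoter sequence was available for 25 of the 31 genes, as 34 RefSeq windows of the GRCm38.p6 assembly from 250 bases before to 50 bases after a transcript start. Fdps, Fdft1, Sqle, Stard4, Scd1 and Scd2 had no window and were not searched. The CCAAT motif of NF-Y, searched on both strands, was in a window of 21 of the 25 genes (84%), against 44.2% of the 6713 genes with a window and a level of at least 5 CPM in all 4 classes. GGGCGG, an Sp1 motif, was also in 84% of them, against 72.8%, and the E-box CACGTG was in 20%, against 13.1%. The core of the sterol regulatory element, searched as TCACNCCAC, was in 1 gene (4%), against 1.34%. A match of letters is a description of these windows and shows no binding. Nothing is read from a missing match, because only these letters and these windows were searched. The windows of 3 genes are shown because they carry this comparison. Hmgcs1 at chr13:119690101-119690400 (plus strand) is the 1 searched member with the sterol element core, at position -137 from its start. Mvk at chr5:114444019-114444318 (plus strand) has 5 CCAAT motifs, the most of any searched member. Ebp at chrX:8193463-8193762 (minus strand) is the 1 member that was lower in 48h-EpiLCs of both lines, and its 2 CCAAT motifs begin at -170 and -55. Capitals mark CCAAT or its complement ATTGG and, in Hmgcs1, the sterol element core TCACCCCAC.
Hmgcs1: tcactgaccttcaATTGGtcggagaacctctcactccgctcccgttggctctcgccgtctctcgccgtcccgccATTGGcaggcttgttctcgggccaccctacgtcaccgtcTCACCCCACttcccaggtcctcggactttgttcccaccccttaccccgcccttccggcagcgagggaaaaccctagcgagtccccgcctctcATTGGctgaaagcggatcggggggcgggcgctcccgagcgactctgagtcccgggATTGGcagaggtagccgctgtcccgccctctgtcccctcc
Mvk: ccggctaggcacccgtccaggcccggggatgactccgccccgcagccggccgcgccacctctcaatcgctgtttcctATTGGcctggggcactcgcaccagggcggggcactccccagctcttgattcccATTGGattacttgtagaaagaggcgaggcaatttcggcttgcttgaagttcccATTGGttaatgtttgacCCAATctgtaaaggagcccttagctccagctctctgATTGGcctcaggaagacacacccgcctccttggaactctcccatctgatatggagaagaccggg
Ebp: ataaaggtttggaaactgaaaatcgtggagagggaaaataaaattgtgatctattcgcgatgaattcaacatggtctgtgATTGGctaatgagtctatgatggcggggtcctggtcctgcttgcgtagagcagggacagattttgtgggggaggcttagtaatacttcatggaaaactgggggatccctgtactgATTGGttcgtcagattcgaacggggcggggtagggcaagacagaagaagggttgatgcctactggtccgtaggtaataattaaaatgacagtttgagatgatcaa

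From ESCs to 48h-EpiLCs, most of these genes had higher levels in both lines. Summed over the 31 genes, WT cells had 1771 CPM as ESCs (95% exact Poisson interval 1738 to 1804) and 2781 CPM as 48h-EpiLCs (2740 to 2823), and KO cells had 1767 (1754 to 1779) and 2879 CPM (2866 to 2893). The intervals of the 2 lines overlapped as ESCs, and both 48h-EpiLC values lay above both ESC values. The median log2 ratio of 48h-EpiLCs over ESCs was 0.49 over the 31 genes in WT cells and 0.59 in KO cells, against 0.03 and -0.02 over all genes with a mean of at least 5 CPM. All 31 genes passed that minimum in each comparison. In WT cells 29 ratios were above 0 and 2 below, where 52.45% of all genes had a ratio above 0. Of the 31 counting intervals there, 21 lay above 0 and 1 below, where 2605 of 9242 genes had theirs above 0 and 2352 below. In KO cells 30 ratios were above 0 and 1 below, where 47.92% of all genes had a ratio above 0. Of the 31 intervals there, 29 lay above 0 and 1 below, where 3583 of 9478 genes had theirs above 0 and 3970 below. By the 1.5-fold difference that the study's methods use, 11 were higher and 1 lower in WT cells, where 14.6% of 9242 genes were higher and 12.4% lower. In KO cells 16 were higher and 1 lower, where 9.51% of 9478 genes were higher and 11.1% lower. The genes higher in both lines were the same 7, that is 7 of the 11 and 7 of the 16: Fdps, Lss, Dhcr7, Insig1, Srebf1, Scd1 and Scd2. How many of all genes were higher in both lines was not counted. There was 1 library per stage, so each class is 1 sample, no test could be made, and all intervals given here cover counting error only. Over all kept cells of each library, whatever their line, the median of the 31 log2 ratios was 0.56.

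**Figure D1:**
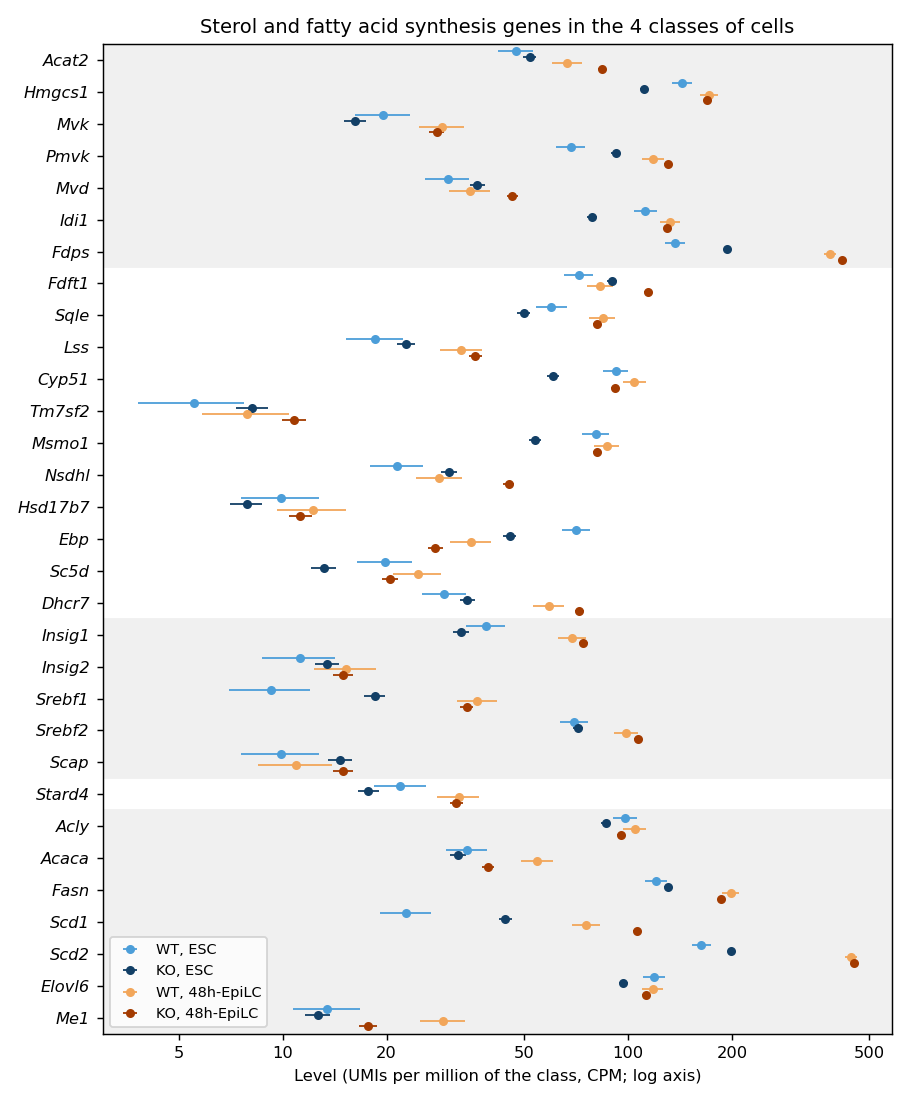
Level of each of the 31 genes (rows, grouped by pathway role in shaded bands) in CPM on a log axis, for WT and KO cells of the ESC and 48h-EpiLC libraries, with 95% exact Poisson intervals as bars. For most genes both 48h-EpiLC points lie to the right of both ESC points, Fdps and Scd2 reach 416 and 450.4 CPM in KO 48h-EpiLCs, and Ebp lies the other way.

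Among the mevalonate steps, Fdps, the synthase of farnesyl diphosphate, showed the largest difference between stages. It was at 137 CPM in WT and 193 CPM in KO ESCs, against 384 and 416 CPM in 48h-EpiLCs, a log2 ratio of 1.49 (95% counting interval 1.38 to 1.61) in WT and of 1.11 (1.07 to 1.14) in KO cells. Both ESC values lay below both 48h-EpiLC values. Pmvk, phosphomevalonate kinase, was at 68.4 and 92.2 CPM in WT and KO ESCs, against 118 and 130.3 CPM in 48h-EpiLCs, and passed 1.5-fold in WT cells (0.79) but not in KO cells (0.50). Hmgcs1, which condenses acetoacetyl-CoA to HMG-CoA and whose window above holds the sterol element core, was at 144 and 111 CPM and at 172 and 169 CPM, with log2 ratios of 0.26 in WT and 0.61 in KO cells. The lines differed as ESCs and had overlapping intervals as 48h-EpiLCs. Idi1, which interconverts the isoprenoid diphosphates, had the same order, with 112 and 78.9 CPM in WT and KO ESCs and 133 and 129.8 CPM in 48h-EpiLCs. Mvk, mevalonate kinase, was at 19.5 and 16.2 CPM and at 28.9 and 27.9 CPM, and Acat2, the cytosolic thiolase that opens the pathway, at 47.4 and 51.9 CPM and at 66.7 and 84.0 CPM. Mvd, the decarboxylase, differed least between stages, with log2 ratios of 0.22 (-0.07 to 0.51) in WT and 0.34 (0.25 to 0.43) in KO cells.

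Of the 11 steps from squalene to cholesterol, Ebp, the sterol isomerase, went against the others. It was at 70.8 CPM in WT and 45.5 CPM in KO ESCs, against 35.1 and 27.7 CPM in 48h-EpiLCs, a log2 ratio of -1.01 (-1.26 to -0.78) in WT and -0.72 (-0.81 to -0.62) in KO cells. Dhcr7, the reductase of the last step, was about 2-fold higher: 29.4 and 34.3 CPM in WT and KO ESCs against 59.0 and 72.3 CPM. Lss, which closes squalene epoxide to lanosterol, was at 18.5 and 22.8 CPM against 32.96 and 36.1 CPM. Sqle, the squalene epoxidase, was at 60.0 and 49.9 CPM against 84.4 and 81.2 CPM, and passed 1.5-fold in KO cells (0.70) but not in WT cells (0.49). Cyp51, the lanosterol demethylase, Msmo1, which oxidises the sterol methyl groups, and Sc5d, a sterol desaturase, passed it in KO cells alone. Cyp51 was at 92.1 and 60.7 CPM in WT and KO ESCs against 104 and 92.0 CPM, with log2 ratios of 0.18 in WT and 0.60 in KO cells. Msmo1 was at 80.8 and 54.0 CPM against 86.7 and 81.3 CPM (0.10 and 0.59), and Sc5d at 19.8 and 13.2 CPM against 24.6 and 20.5 CPM (0.31 and 0.64). For Msmo1 and Sc5d the interval in WT cells included 0. Fdft1, squalene synthase, and Tm7sf2, Hsd17b7 and Nsdhl, which reduce or dehydrogenate sterol intermediates, had log2 ratios of 0.20 to 0.51 in WT and 0.34 to 0.58 in KO cells. Tm7sf2 and Hsd17b7 rested on 34 and 61 UMIs in WT ESCs, so that their intervals in WT cells included 0.

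Among the genes that control SREBP, Srebf1 and Insig1 passed 1.5-fold by stage in both lines, Srebf2 differed by less, and Scap did not detectably differ. Srebf1, whose product favours fatty acid genes, was at 9.26 CPM in WT and 18.5 CPM in KO ESCs, against 36.7 and 34.2 CPM in 48h-EpiLCs, a log2 ratio of 1.98 (1.56 to 2.43) in WT and 0.89 (0.77 to 1.00) in KO cells. The 2 lines differed as ESCs and had overlapping intervals as 48h-EpiLCs. Insig1, which is both a brake on SREBP and one of its targets, was at 38.8 and 32.9 CPM against 69.0 and 74.1 CPM. Srebf2, which favours the cholesterol genes, was at 69.9 and 71.8 CPM against 98.6 and 107 CPM, log2 ratios of 0.50 and 0.57 that fell short of 1.5-fold. Scap was at 9.91 and 14.7 CPM against 10.9 and 14.9 CPM, and Insig2 at 11.2 and 13.5 CPM against 15.3 and 15.0 CPM. Stard4, which carries sterol between membranes, was at 21.9 and 17.7 CPM against 32.3 and 31.9 CPM, and passed 1.5-fold in KO cells (0.85) but not in WT cells (0.56).

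Among the fatty acid genes the stearoyl-CoA desaturases differed most by stage. Scd1 was at 22.8 CPM in WT and 44.1 CPM in KO ESCs, against 75.7 and 106 CPM in 48h-EpiLCs, a log2 ratio of 1.74 (1.46 to 2.02) in WT and 1.26 (1.19 to 1.34) in KO cells. Scd2 was at 163 and 198 CPM against 442 and 450.4 CPM, with log2 ratios of 1.44 and 1.18. Fasn, the fatty acid synthase, was at 121 and 130.4 CPM against 198 and 186 CPM, log2 ratios of 0.72 in WT and 0.51 in KO cells. Acaca, acetyl-CoA carboxylase, was at 34.1 and 32.3 CPM against 54.5 and 39.3 CPM, and Me1, a source of NADPH, at 13.5 and 12.7 CPM against 29.1 and 17.7 CPM. Both passed 1.5-fold in WT cells alone. Acly, which makes cytosolic acetyl-CoA from citrate, and Elovl6, an elongase, were close to level: 98.3 and 86.1 CPM against 105 and 95.2 CPM for Acly, and 119 and 96.8 CPM against 118 and 113 CPM for Elovl6.

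**Figure D2:**
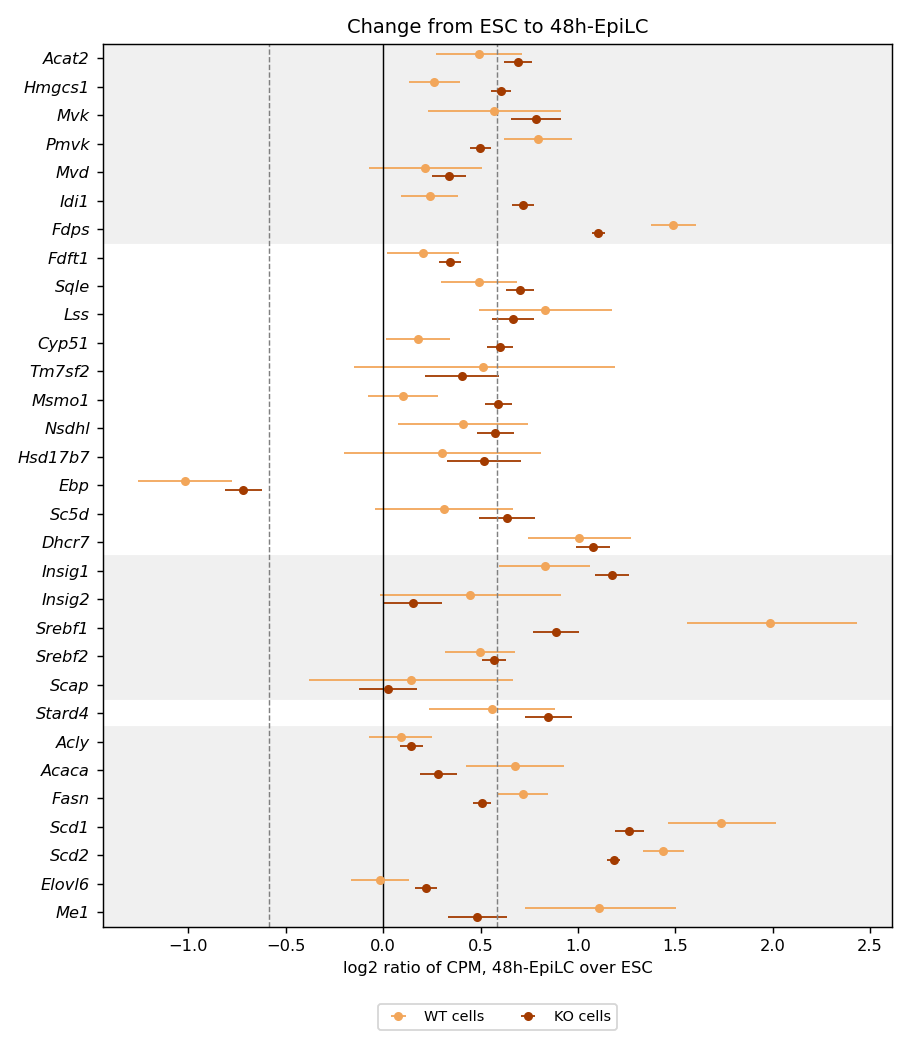
Log2 ratio of CPM, 48h-EpiLCs over ESCs, for each of the 31 genes in WT and in KO cells, with 95% counting intervals as bars and dashed lines at a 1.5-fold difference. Points lie to the right of 0 except Ebp in both lines and Elovl6 in WT cells, Srebf1 and Scd1 lie farthest right in WT cells (1.98 and 1.74), and 7 genes lie past the dashed line in both lines.

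Between the lines the 31 genes had no common direction. The median log2 ratio of KO over WT cells in the ESC library was 0.04, with 16 genes above 0 and 15 below, against 0.13 over all genes, and 14 of the 31 were above the median of all genes. Scaling by TMM, an alternative to the class total, moved the median of all genes by 0.10 to 0.03 and that of the 31 to -0.06, so single ratios are best read against these medians. By 1.5-fold, 2 genes were higher and 3 lower in KO ESCs, where 13.9% of 9277 genes were higher and 5.61% lower. In 48h-EpiLCs the median was -0.03, against 0.08 over all genes, with 14 above 0 and 17 below. There 1 gene was higher and 1 lower, where 9.04% of 9385 genes were higher and 4.95% lower. No gene passed 1.5-fold in the same direction in both libraries, that is 0 of 2 and 0 of 1 higher and 0 of 3 and 0 of 1 lower. With so few genes past it, this says little, and the overlap over all genes was not counted.

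The genes higher in KO ESCs were Srebf1 and Scd1. Srebf1, at 18.5 against 9.26 CPM, had a log2 ratio of 1.00 (0.61 to 1.41), and Scd1, at 44.1 against 22.8 CPM, one of 0.96 (0.71 to 1.21). In WT cells both genes also had the largest log2 ratios of 48h-EpiLCs over ESCs (1.98 and 1.74). The WT ESC level is the divisor in both comparisons, so a low value there raises both ratios. In KO cells the ratios of 48h-EpiLCs over ESCs were 0.89 and 1.26. In 48h-EpiLCs the log2 ratio of KO over WT cells was -0.10 (-0.30 to 0.10) for Srebf1 and 0.48 (0.35 to 0.62) for Scd1. Just inside 1.5-fold in KO ESCs were Scap (0.57), Tm7sf2 (0.56), Fdps (0.50) and Nsdhl (0.50).

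The genes lower in KO ESCs were Ebp, Cyp51 and Sc5d, which all act between lanosterol and cholesterol. Other genes of that stretch went both ways. Tm7sf2 (0.56, 0.05 to 1.12), Nsdhl (0.50, 0.24 to 0.77) and Dhcr7 (0.22, -0.0013 to 0.45) lay above 0. Msmo1 and Hsd17b7 (-0.33, -0.73 to 0.08) lay below. Cyp51 was at 60.7 against 92.1 CPM, a log2 ratio of -0.60 (-0.73 to -0.47), Ebp at 45.5 against 70.8 CPM (-0.64, -0.79 to -0.49), and Sc5d at 13.2 against 19.8 CPM (-0.59, -0.87 to -0.30). Msmo1, at 54.0 against 80.8 CPM (-0.58), lay just inside 1.5-fold, followed by Idi1 (-0.51) and Hmgcs1 (-0.37). The sterol genes did not move as 1 block. Fdps (0.50, 0.40 to 0.60), Pmvk (0.43, 0.29 to 0.58), Fdft1 (0.32, 0.18 to 0.46) and Lss (0.30, 0.02 to 0.59) also had ratios above 0 in the same cells, where the median over all genes was 0.13. In 48h-EpiLCs the ratios of Cyp51, Msmo1, Idi1 and Hmgcs1 were -0.18, -0.09, -0.03 and -0.03, those of Ebp and Sc5d -0.34 and -0.26. Feeder fibroblast markers were 46.3 against 12.7 CPM in KO and WT ESCs. Without the cells that had at least 3 markers of another cell type, Cyp51, Ebp and Sc5d remained at -0.63, -0.63 and -0.60. The 1.5-fold calls of Cyp51 and Sc5d lay near the boundary and were lost under 6 and 7 of 15 other settings, and that of Ebp under 2.

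In 48h-EpiLCs the 2 genes past 1.5-fold were Nsdhl and Me1. Nsdhl, a sterol dehydrogenase, was at 45.2 CPM in KO against 28.5 CPM in WT cells (0.67, 0.45 to 0.89), and at 30.3 against 21.5 CPM in ESCs (0.50). Me1 was at 17.7 against 29.1 CPM (-0.72, -0.95 to -0.48) and at 12.7 against 13.5 CPM in ESCs (-0.09, -0.43 to 0.26). Fdft1 (0.46), Tm7sf2 (0.46), Scap (0.45), Mvd (0.41) and Acaca (-0.47) were the other genes at 0.40 or farther from 0, besides Scd1. Nsdhl and Ebp lie on the X chromosome, at chrX:72918557-72958514 and chrX:8185329-8193512 of GRCm38, and had ratios of opposite sign in both libraries.

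**Figure D3:**
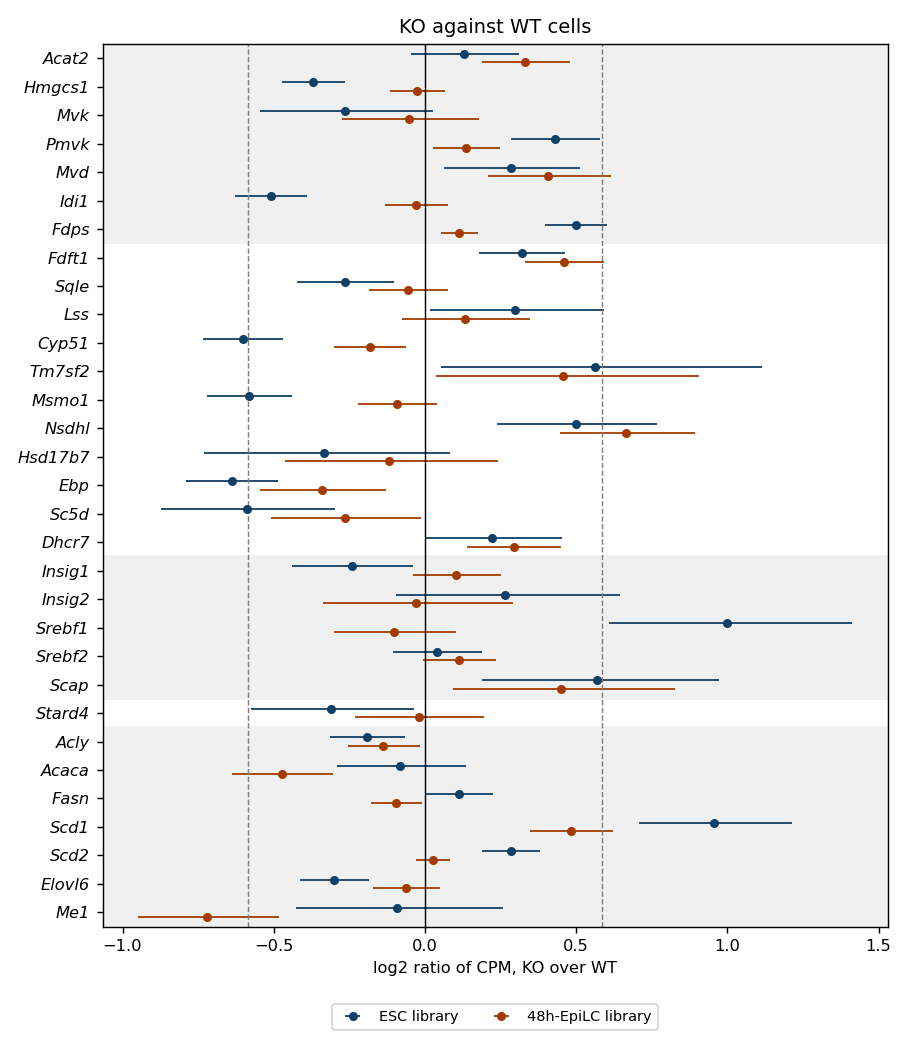
Log2 ratio of CPM, KO over WT cells, for each of the 31 genes in the ESC and in the 48h-EpiLC library, with 95% counting intervals as bars and dashed lines at a 1.5-fold difference. Points lie on both sides of 0. In ESCs Srebf1 and Scd1 lie past the right dashed line and Ebp, Cyp51 and Sc5d past the left one, and in 48h-EpiLCs Nsdhl and Me1 do.

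The difference between lines in the change from ESC to 48h-EpiLC is the same quantity as the difference between libraries in the KO over WT ratio. Its counting interval left out 0 for 16 of the 31 genes, with a larger log2 change in KO cells for 8 and a smaller one for 8, where 15% of 9377 genes had a larger and 18.2% a smaller change. Of the 18 sterol enzymes, the change was larger in KO cells for 6 and smaller for 2, and the interval included 0 for 10. The 6 were Msmo1 with 0.49 (0.30 to 0.68), Idi1 with 0.48 (0.32 to 0.64), Cyp51 with 0.42 (0.24 to 0.60), Hmgcs1 with 0.34 (0.21 to 0.48), Ebp, whose change was less negative in KO cells, with 0.30 (0.05 to 0.55) and Sqle with 0.21 (0.0040 to 0.41), and the 2 were Fdps (-0.38) and Pmvk (-0.29). Of the 7 fatty acid genes, the change was smaller in KO cells for 5, larger for Elovl6 (0.24), and the interval of Acly included 0. The 5 were Me1 with -0.63 (-1.03 to -0.22), Scd1 with -0.47 (-0.75 to -0.19), Acaca with -0.39 (-0.66 to -0.13), Scd2 with -0.26 (-0.37 to -0.15) and Fasn with -0.21 (-0.34 to -0.07). Among the genes that control SREBP, Insig1 had a larger change in KO cells, by 0.35 (0.10 to 0.59), and Srebf1 a smaller one, with -1.10 (-1.53 to -0.66). These differences rest on tdTomato-positive WT cells, and stage changes of a second set of cells follow below.

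The tdTomato reporter marked few WT cells, and a second set of cells in the same libraries was therefore compared, a choice made after the data had been seen. It held the cells with 0 tdTomato UMIs, 0 Y-linked UMIs and at least 15000 UMIs in all, 939 in the ESC and 1758 in the 48h-EpiLC library, and was set against KO cells of the same minimum depth. It shares no cell with the WT class, and it may include KO cells whose Y-linked transcripts went uncounted. The WT class held a mean of 1.08 tdTomato UMIs per cell in ESCs and 1.07 in 48h-EpiLCs. Whether a single tdTomato UMI came from free RNA was not tested. The KO cells set against the second set also belong to the KO class, so the 2 comparisons are not independent. In ESCs the log2 ratio of KO cells over this set was 0.76 (0.50 to 1.02) for Srebf1 and 0.51 (0.36 to 0.67) for Scd1. It was -0.40 (-0.51 to -0.29) for Msmo1, -0.38 (-0.51 to -0.26) for Ebp, -0.36 (-0.44 to -0.28) for Hmgcs1, -0.27 (-0.38 to -0.16) for Cyp51, -0.26 (-0.36 to -0.16) for Idi1 and -0.26 (-0.50 to -0.02) for Sc5d. These ratios had the directions found against tdTomato-positive WT cells, and of these genes Srebf1 alone passed 1.5-fold. In 48h-EpiLCs Nsdhl had 0.51 (0.41 to 0.62) and Me1 -0.59 (-0.72 to -0.45), and Me1 alone passed 1.5-fold. From ESCs to 48h-EpiLCs, the second set differed by 1.65 for Srebf1, 1.54 for Scd1, 1.43 for Scd2, 1.27 for Fdps and -0.76 for Ebp. KO cells of the same minimum depth had 0.95, 1.34, 1.26, 1.12 and -0.75. For Idi1, Msmo1 and Cyp51 the second set differed by 0.45, 0.26 and 0.32, and these KO cells by 0.67, 0.53 and 0.56. For all of these genes the changes lay nearer each other than those of KO and tdTomato-positive WT cells. For Ebp they were close to level.

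**Figure D4:**
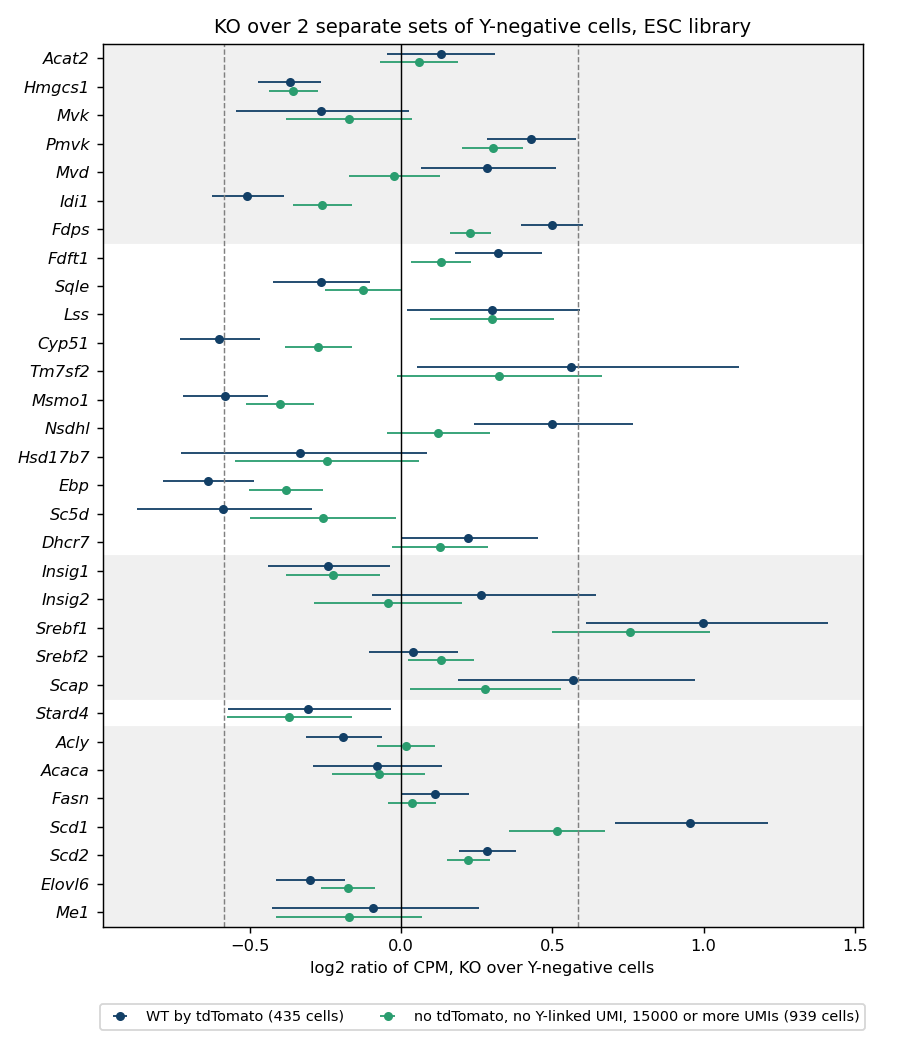
Log2 ratio of CPM in the ESC library for each of the 31 genes, of KO cells over the 435 tdTomato-positive WT cells and over the 939 deep cells with no tdTomato and no Y-linked UMI (KO cells of the same minimum depth in the second case), with 95% counting intervals as bars. The second set lies closer to 0 for most genes, with Srebf1 at 0.76 and Hmgcs1 at -0.36.

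Other lipid genes were taken from lists by role, and their counts are to be read beside those of all genes. By stage, 14.6% of all genes were higher and 12.4% lower in WT cells, and 9.51% and 11.1% in KO cells. The medians over all genes were 0.03 and -0.02. Between lines, 13.9% of all genes were higher and 5.61% lower in KO ESCs, and 9.04% and 4.95% in KO 48h-EpiLCs. Of 15 further genes of lipid synthesis, 14 passed the 5 CPM minimum, and between stages 5 were higher and 0 lower in WT cells and 4 and 0 in KO cells, with medians of 0.37 and 0.31. The 4 higher in both were the desaturases Fads2 (2.56 and 1.82) and Fads1 (1.33 and 0.99), Mid1ip1 (2.32 and 1.89), an activator of acetyl-CoA carboxylase, and the acyl-CoA synthetase Acsl3 (1.09 and 0.61). Between lines, 4 of the 14 were higher and 0 lower in KO ESCs, and 2 and 0 in KO 48h-EpiLCs. Fads1 (1.03 in ESCs and 0.69 in 48h-EpiLCs) and the elongase Elovl1 (0.78 and 0.73) were higher in KO cells of both libraries. Of 11 genes of fatty acid oxidation, the opposing pathway, 10 passed in WT and 11 in KO cells, and 1 was higher and 4 lower by stage in WT cells and 1 and 2 in KO cells, with medians of -0.31 and -0.32. Slc25a20, the carnitine carrier of mitochondria, had log2 ratios of -2.03 and -1.78, while Cpt2 had 1.35 and 0.61. Between lines, 2 of the 11 oxidation genes were higher and 0 lower in KO ESCs, and 1 and 0 in KO 48h-EpiLCs. Cpt1a, which admits fatty acids to mitochondria, was higher in KO than in WT cells in both libraries (1.35 and 1.40). It was at 13.3 against 5.20 CPM in ESCs and 10.6 against 4.02 CPM in 48h-EpiLCs.

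Of 11 genes of lipid uptake and storage, 8 passed in WT and 9 in KO cells by stage, and 4 were higher and 1 lower in each line, with medians of 0.45 and 0.39. Fabp5 (1.27 and 1.40), Soat1, which esterifies cholesterol (1.53 and 1.26), the lipoprotein receptor Lrp8 (1.71 and 0.69) and the HDL receptor Scarb1 (0.66 and 0.79) were higher in 48h-EpiLCs of both lines. Between lines, 1 of 8 genes of this list was higher and 0 lower in KO ESCs, and 2 and 1 of 9 in KO 48h-EpiLCs. Scarb1 was higher in KO than in WT cells of both libraries (0.62 and 0.75). Of 6 genes of sterol sensing by LXR and of sterol export, 4 passed, and Abcg1 (2.29 and 1.26) and Mylip (1.38 and 1.51) were higher in 48h-EpiLCs of both lines. Abca1 of the same list, under the 5 CPM minimum in this comparison, went the other way (-2.29 and -2.52). It was at 4.71 and 6.69 CPM in WT and KO ESCs against 0.96 and 1.16 CPM in 48h-EpiLCs. Between lines, 2 of the 4 genes of this list that passed there were higher and 0 lower in KO ESCs, with a median of 0.74. In KO 48h-EpiLCs 0 of 4 were higher and 0 lower, with a median of 0.10. Of 6 genes that process or degrade the SREBP system, 2 were higher by stage in WT cells and 0 in KO cells, with medians of 0.32 and 0.11. Between lines, 2 of the 6 were higher and 1 lower in KO ESCs, and 0 and 0 in KO 48h-EpiLCs, with medians of 0.25 and -0.06.

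Single cells were compared after each had been thinned at random to 5000 UMIs, which removed 1 WT and 23 KO cells from the ESCs and 1 and 9 from the 48h-EpiLCs. The 31 genes then gave a median of 8 UMIs per cell in both lines of ESCs and of 14 in both lines of 48h-EpiLCs. The middle 80% of cells ran from 4 to 15 UMIs in WT and KO ESCs, from 8.6 to 20 in WT and from 9 to 21 in KO 48h-EpiLCs, so the stages overlapped cell by cell while the whole distribution was displaced. Only 3 of 2955 KO and 2 of 434 WT ESCs had none.

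**Figure D5:**
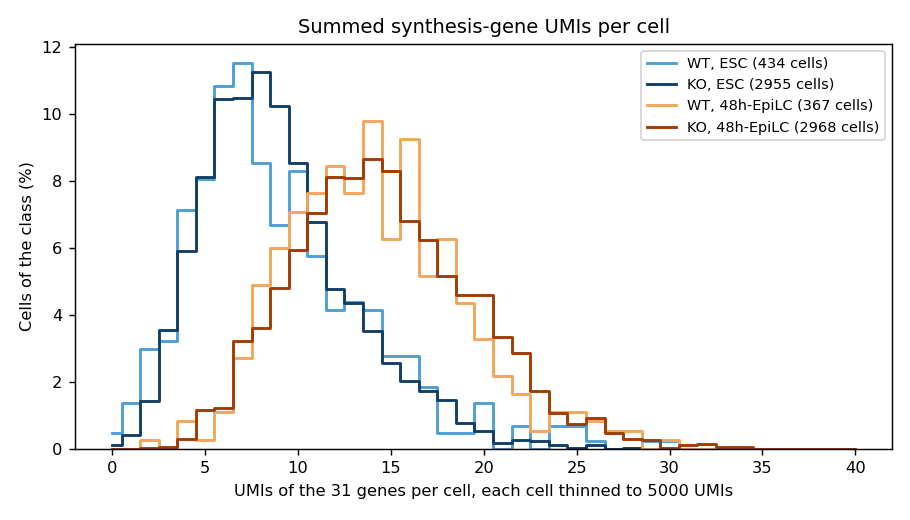
Share of cells (percent of the class, y axis) by their summed UMIs of the 31 genes after thinning to 5000 UMIs per cell (x axis, up to 40), for WT and KO cells of both libraries. The 2 ESC curves lie together around a median of 8 UMIs and the 2 48h-EpiLC curves around 14.

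The sum over the 18 sterol enzymes varied most from cell to cell among WT ESCs, where its variance was 2.31 times its mean (the Fano factor, 1 for random counting alone), against 1.68 in KO ESCs and 1.66 and 1.5 in WT and KO 48h-EpiLCs. It was 2.42 in WT ESCs without the cells that had markers of other types and 2.25 in the second, tdTomato-negative set. Hmgcs1, Scd2 and Msmo1 had the highest single-gene values in WT ESCs (1.58, 1.49 and 1.35), where the median was 1.08 over the 30 members with at least 5 CPM after thinning and 1.02 over all such genes. Summed UMIs of the mevalonate steps and of the steps from squalene on correlated across cells with Pearson's r of 0.36 in 434 WT and 0.25 in 2955 KO ESCs and of 0.24 and 0.17 in 367 WT and 2968 KO 48h-EpiLCs. The sterol enzymes and the fatty acid genes correlated with r of 0.34 and 0.20 in ESCs and of -0.01 and 0.13 in 48h-EpiLCs. With fatty acid oxidation neither sum exceeded 0.09 in any class. Cells of 1 class share their library, depth and free RNA, and these values are descriptions.

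Cells carrying markers of other types were also measured, over all kept cells of the ESC library. In 224 cells with at least 3 feeder fibroblast markers the 31 genes summed to 1568 CPM, and in 187 with at least 3 primitive endoderm markers to 1972 CPM, against 1806 CPM in the 10597 cells without such markers. The cells with fibroblast markers also held 714 CPM of the naïve markers, so they were not fibroblasts alone. Me1 and Hsd17b7 stood out in them, at 58.8 and 35.6 CPM against 12.7 and 8.22 CPM in cells without such markers. In the cells with primitive endoderm markers Srebf1 was at 26.5 CPM against 15.3 CPM and Scd1 at 59.2 CPM against 38.6 CPM. Those cells held 700.5 CPM of the naïve markers and 1011 CPM of 4 core pluripotency genes, so they may not have been primitive endoderm alone. In KO ESCs, 73 of the 2978 cells had fibroblast and 75 primitive endoderm markers, and in WT ESCs 2 and 4 of the 435. Without all such cells the ratios of Srebf1 and Scd1 in ESCs were 1.02 and 0.97.

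By GENCODE M21 on GRCm38, exons of 4 of the 31 genes overlap another gene on the same strand, where reads may be shared: Fdps with Gm43738, Tm7sf2 with Vps51, Srebf1 with Mir6922 and Scd2 with Mir5114. For 9 genes exons overlap a gene on the opposite strand, among them Fdft1 with Ctsb, Cyp51 with Akap9 and Srebf1 with Rai1. The study's methods give Cell Ranger with default settings, under which a read counts for a gene only in the sense direction of its transcripts.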

How the data were processed

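The deposited values were UMI counts per gene and barcode, which the authors made from droplet libraries of transcript 3′ ends with Cell Ranger (version 3.0.2) and an mm10 reference with tdTomato added. Seurat (version 4) is also named in the submitters' processing notes. The values were whole numbers with no normalisation. Cells were assigned to a line as given in the report, and UMIs were summed per line and library to 6154790 (WT ESCs), 44110356 (KO ESCs), 6219834 (WT 48h-EpiLCs) and 59291903 (KO 48h-EpiLCs). The line of a cell is inferred, from tdTomato as the labels advise and from Y-linked genes in addition.

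CPM had exact Poisson intervals. Ratios had exact binomial intervals, with the total of the 2 counts held fixed, and differences of log2 changes had intervals of 1.96 standard errors from counting. All are 95% intervals and cover counting error only. Cells are not replicates, each class is 1 sample, and no p-value is given. Medians were taken over genes with a mean of at least 5 CPM in the 2 classes (in the 4 classes, with a UMI in each, for differences of changes). A gene counted as higher or lower past 1.5-fold. All 31 genes are accounted for, and genes past 1.5-fold in any comparison are described with their values. Other lipid genes were named where they passed it in the same direction in both lines or both libraries, except 1 gene that is not reported here. No doublet caller was run, and cells over 2 times their library's median of UMIs were left out as an alternative.

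Other pseudocounts, level minimums, scalings, depths and cell filters were tried, 14 in all, and 1 more was added after the data had been seen. TMM factors came from edgeR (version 4.0.16, R 4.3.3). Other steps used Python 3.11.15 with numpy 2.4.6, scipy 1.17.1 and pandas 2.3.3, and were tested on simulated data. The 31 genes, the role lists and the motifs were chosen with earlier results of these data known. Of the features, 32158 (99.6%) were found in GENCODE M21 by identifier. Promoter windows were those of RefSeq.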

Additional observations from a re-analysis of the deposited data

Results flagged for a closer look

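Fasn had a log2 ratio of KO over WT of 0.11 (95% counting interval 0.00080 to 0.22) in ESCs and of -0.09 (-0.18 to -0.0084) in 48h-EpiLCs, opposite directions with intervals that each leave out 0. Levels were 130.4 against 121 CPM in ESCs and 186 against 198 CPM in 48h-EpiLCs. Both ratios lay below the median over all genes, 0.13 in ESCs and 0.08 in 48h-EpiLCs, so relative to these medians the directions were the same. Over the second set of cells the ratio was 0.04 (-0.04 to 0.12) in ESCs, an interval that includes 0. There it was -0.07 (-0.11 to -0.02) in 48h-EpiLCs. Each class is 1 sample, so the difference between libraries was not tested beyond counting error.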

How the results depend on the processing

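No paired analysis was possible because each class of cells is 1 sample and there is 1 library per stage. Each library held 1 sample, so none could be left out. Over 15 other settings (pseudocount, level minimum, TMM, equal weight of cells, thinning, depth, cell filters, assignment to lines), the median log2 ratio of the 31 genes ranged from 0.48 to 0.55 for 48h-EpiLCs over ESCs in WT cells and from 0.56 to 0.64 in KO cells. For KO over WT it ranged from -0.06 to 0.11 in ESCs and from -0.07 to 0.07 in 48h-EpiLCs, so its sign is not settled in either library. Of 456 values of single genes for KO over WT in ESCs, 19 left their counting interval and 6 changed sign, and of 461 in 48h-EpiLCs 9 and 26. No value past 1.5-fold changed direction. Past 1.5-fold in KO ESCs were 1 to 5 genes on the higher side and 0 to 5 on the lower side, and in KO 48h-EpiLCs 0 to 2 and 1 to 2. The 5 higher genes arose when cells were thinned or limited to 10000 to 20000 UMIs, the 5 lower ones under TMM. Between stages, Msmo1, Cyp51, Hmgcs1, Sc5d and Lss in KO cells and Acaca in WT cells dropped under 1.5-fold in 1 to 3 settings. More calls were gained than lost there: 13 against 1 of 461 values in WT and 17 against 10 of 459 in KO cells. After thinning, Srebf2 passed 1.5-fold in WT (0.69) and in KO cells (0.61), so the set of 7 genes higher in both lines depends on the setting. With the second set of cells in place of WT, 1 gene was higher and 0 lower in KO ESCs. WT classes of 435 and 368 cells limit low genes most: Srebf1 rested on 57 UMIs and Scap on 61 in WT ESCs.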
